A study of Homo sapiens with 2 samples.

Results

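Genes that carry a cell through mitosis were examined in Hep3B, an established human hepatocellular carcinoma line, after exposure to an extract of the plant Glehnia littoralis (GLE). The set was 50 named regulators of mitotic entry, kinetochore, spindle checkpoint, anaphase and cytokinesis genes, without the kinesins other than CENPE, and all 50 were found by symbol among the 43424 symbols of the count files. A single library came from wild-type Hep3B cells with the vehicle dimethyl sulfoxide (DMSO, called the control), and 1 from such cells with GLE. The sources used here state neither dose nor exposure time for the sequenced cells, and the line is 1 tumour cell line with no untransformed counterpart in the series. Library preparation (Lexogen QuantSeq) captures 3′ ends of polyadenylated RNA, so values are scaled counts per 1000000 (CPM) without division by length, and levels were compared between libraries and not between genes.

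Entry into mitosis is driven by CDK1 bound to cyclins A and B. WEE1 holds the kinase off by phosphorylation, and the CDC25 phosphatases remove that mark. Kinetochores then tie chromosomes to the spindle, unattached ones keep the checkpoint on, and the anaphase-promoting complex (APC/C) with CDC20 destroys securin and cyclin B once all are attached. Most of these genes are transcribed late in the cell cycle, under the MuvB complex with B-MYB and FOXM1, so in dividing liver tumour cells their RNA is a common measure of proliferation.

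The control library held 5618328 counts and the GLE library 3636351. A floor of 3 counts stood at 0.519 CPM under DMSO and 0.848 CPM under GLE. Of the hepatocyte and hepatoma markers 11 of 11 had at least 30 counts, and the exact 95% counting interval of GLE over control lay below 1 for 8 of them and above 1 for 2. Albumin (ALB) was 4325 CPM under DMSO and 2708 CPM under GLE, and alpha-fetoprotein (AFP) 587 and 421 CPM. The leukocyte marker CD3E and the endothelial markers VWF, CDH5 and KDR had 0 counts in both libraries. Not all were absent: endothelial PECAM1 had 36 control and 1 GLE counts, stromal COL1A1 4 and 29, and leukocyte CD68 117 and 96. The summed level of 5 leukocyte markers, nearly all LYZ, was 490 CPM under DMSO and 464 CPM under GLE, that of 4 endothelial markers 6.23 and 0.283 CPM, and that of 5 stromal markers 4.15 and 14.7 CPM. The part of these and of the lower hepatocyte markers in the mitotic values was not tested.

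Mitotic genes leaned higher in the GLE library, by modest amounts. The members together took 0.669% of the counts under DMSO (exact Clopper-Pearson 95% interval 0.662 to 0.676) and, under GLE, 0.784% (0.775 to 0.793). Of the 50 members, 49 had at least 30 counts over both libraries, and UBE2S had 9 and 8. The ratio of GLE over control, from counts scaled by the trimmed mean of M-values (TMM), ran from 0.682 for SPC25 to 2.23 for ANLN. It was above 1 for 40 members and below 1 for 9, and its median log2 value was 0.40, against -0.04 over all 11068 genes with that many counts.

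At least 1.5-fold higher values were found for 21 of 49 members (42.9%), where 19.3% of all measured genes passed that fold. None of the 49 was at least 1.5-fold lower, a fold passed by 21.9% of all genes; scaling by total counts put SPC25 past it, at 0.645. The exact 95% counting interval of the ratio lay above 1 for 35 members (71.4%) against 27.7% of all genes, and below 1 for 5 (10.2%) against 30.1%. Under another scaling or with the trend on GC content removed, the interval came to include 1 for CENPA, CENPE, ESPL1, INCENP, PRC1, SMC2 and TPX2 of the former and CCNF of the latter. At least 2-fold higher were 4 of 49 members (8.16%), near the 9.54% of all genes, and 0 of 49 were at least 2-fold lower, against 10.5%. These intervals cover counting error only, and with 1 library per group no test between conditions was possible and differences between cultures cannot be told apart from the extract. Neither can a larger share of cells in mitosis be told apart from more RNA per cell in this bulk RNA.

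**Figure D1:**
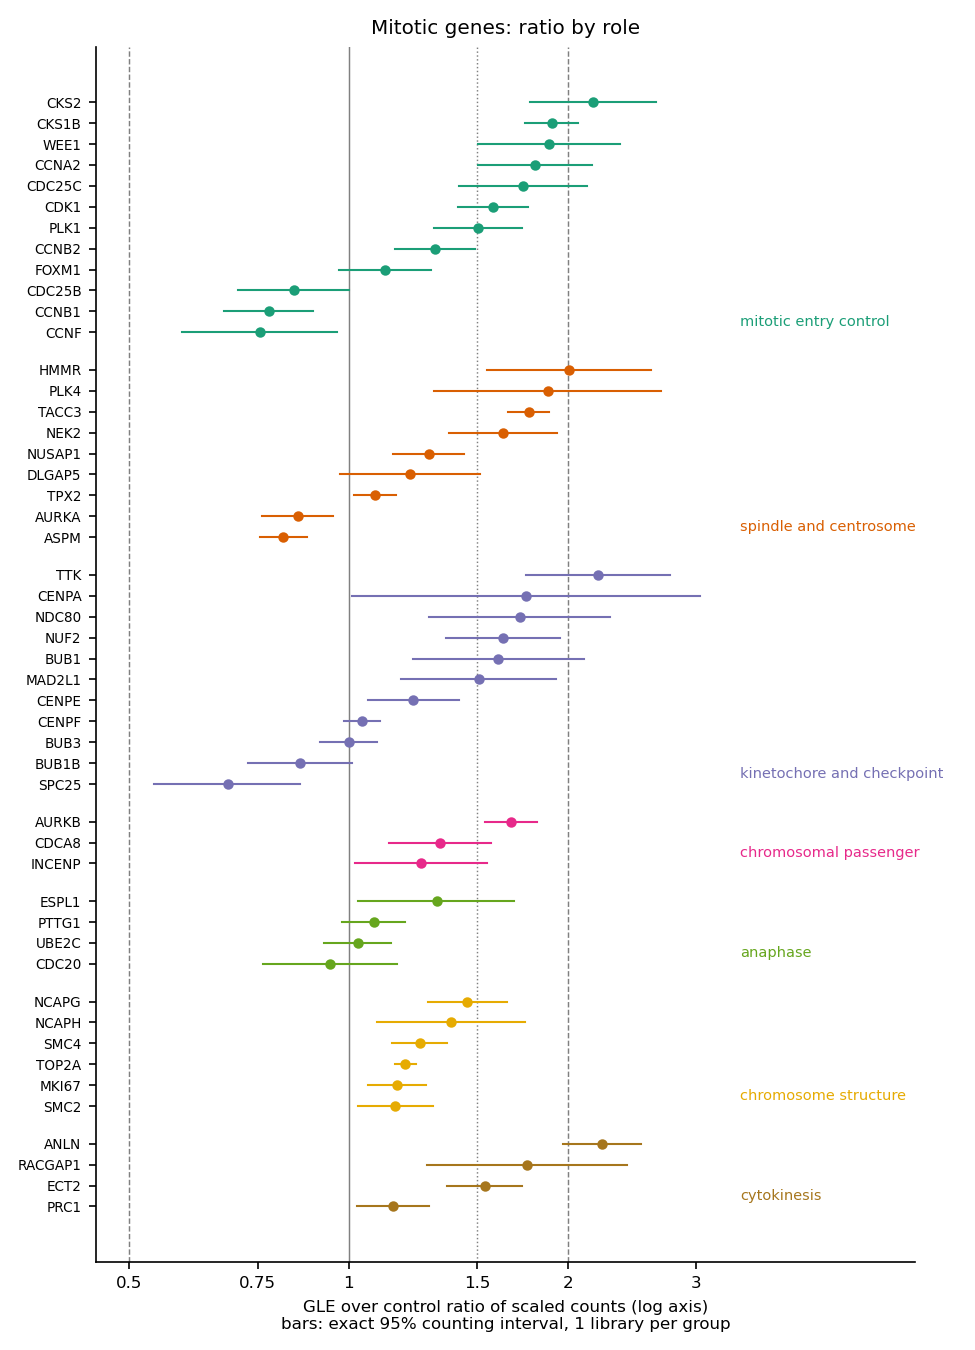
Ratio of GLE over control for the 49 mitotic genes with at least 30 counts, grouped by role on a log axis, with the exact 95% counting interval as a bar and lines at 0.5, 1, 1.5 and 2. Most points lie right of 1, from 0.682 for SPC25 to 2.23 for ANLN, and each role except the passenger, chromosome structure and cytokinesis genes has members on both sides.

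Cyclins and their kinase did not move as one. CCNA2, cyclin A2, which acts from S phase into early mitosis, stood at 40.7 CPM under DMSO and 73.2 CPM under GLE, 1.80-fold higher (95% counting interval 1.504 to 2.16). Its annotated end overlaps EXOSC9 on the opposite strand, and the part of such reads in the CCNA2 value was not tested. CDK1, the mitotic kinase itself, stood at 115 and 182 CPM, 1.58-fold higher (1.41 to 1.76). Cyclin B2 (CCNB2), at 96.9 and 127 CPM, was 1.31-fold higher (1.16 to 1.49). The GLE library was the higher for these 3, but the lower for the next pair. Cyclin B1 (CCNB1; gene at chr5:69167150-69178245 on GRCh38), the main mitotic partner of CDK1, stood at 107 CPM under DMSO and 83.4 CPM under GLE, 1.29-fold lower (1.12 to 1.48). CCNF, a cyclin-like F-box protein of a ubiquitin ligase, stood at 37.0 and 28.0 CPM, 1.32-fold lower (1.04 to 1.70).

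Small CDK-binding proteins lay at the top of the entry genes. CKS1B and CKS2, which dock CDK complexes on phosphorylated targets, stood at 181 and 31.0 CPM in the control. In the GLE library they reached 343 and 67.0 CPM, 1.90-fold (1.75 to 2.07) and 2.16-fold (1.77 to 2.64) higher. The brake WEE1 and the activator CDC25C were both higher with GLE. WEE1, the inhibitory kinase, was at 26.1 CPM under DMSO and 49.2 CPM under GLE, a ratio of 1.88 (1.51 to 2.36). CDC25C, an activating phosphatase, stood at 33.1 and 57.4 CPM, a ratio of 1.74 (1.42 to 2.13). Its paralog CDC25B stood at 65.9 and 55.4 CPM, with a ratio of 0.841 whose interval just included 1 (0.704 to 1.001) and lay below 1 under 3 other scalings. PLK1, the kinase that promotes entry and spindle assembly, stood at 74.1 and 111 CPM, 1.504-fold higher (1.31 to 1.73). FOXM1, the transcription factor of G2/M genes, stood at 80.7 and 90.5 CPM, and its ratio of 1.12 (0.970 to 1.30) was not distinguishable from 1 at this depth, though with the GC trend removed it was 1.22 with an interval above 1.

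**Figure D2:**
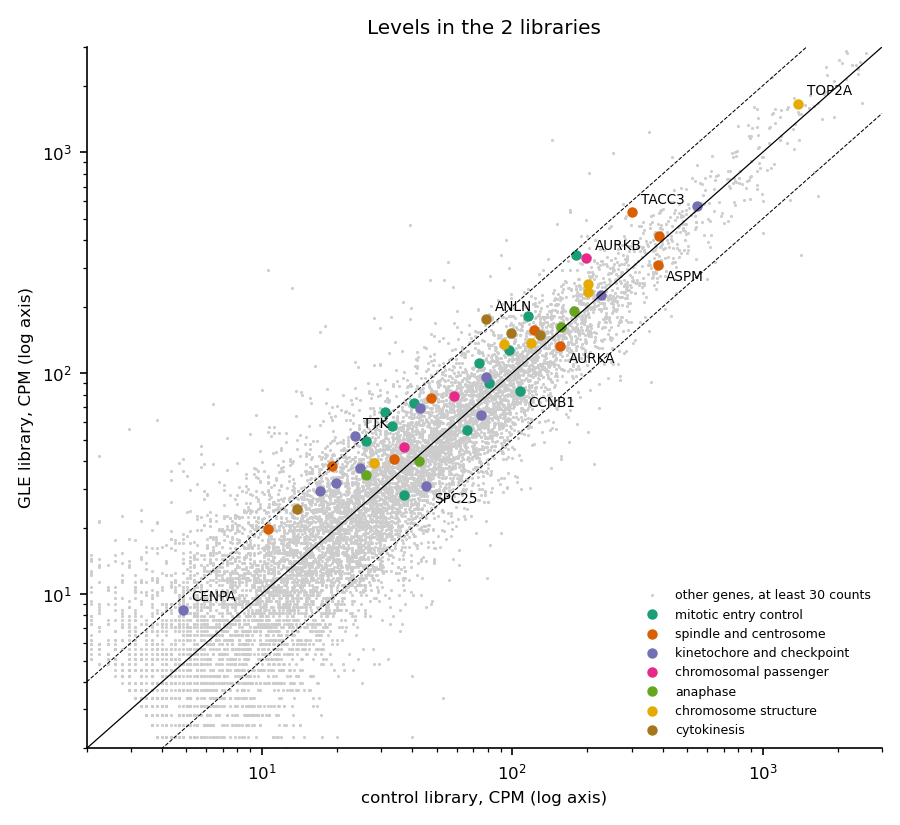
CPM in the control library (x) against the GLE library (y), both log axes from 2 to 3000 CPM, for genes with at least 30 counts and a count in both libraries; grey points are other genes, coloured points the mitotic members by role. The solid line marks equal CPM and the dashed lines 2-fold, and members follow the solid line from CENPA at 4.85 CPM to TOP2A at 1391 CPM in the control, most of them just above it.

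Promoters of several members are shown because late cell cycle genes are known for a shared layout, CCAAT boxes (bound by NF-Y) upstream of a cell cycle genes homology region (CHR, bound by LIN54 of MuvB) near the start. Sequences are the 110 bases before the start site, 5′ to 3′ on the gene's strand, from RefSeq on GRCh38.p14. Capitals mark CHR forms (TTTGAA or TTTAAA) and CCAAT boxes, on either strand. The list holds genes higher in the GLE library (ANLN, CKS2, CDC25C, PLK1, CDCA8, CCNB2 and PRC1) and genes with a ratio below 1 (BUB1B, CCNB1 and SPC25).
ANLN (chr7:36389752-36389861, plus strand): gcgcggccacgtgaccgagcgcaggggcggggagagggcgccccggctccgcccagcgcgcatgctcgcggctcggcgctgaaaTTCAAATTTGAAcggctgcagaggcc
CKS2 (chr9:89311085-89311194, plus strand): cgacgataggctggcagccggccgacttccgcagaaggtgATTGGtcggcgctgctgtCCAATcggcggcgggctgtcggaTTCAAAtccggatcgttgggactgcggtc
CDC25C (chr5:138331805-138331914, minus strand): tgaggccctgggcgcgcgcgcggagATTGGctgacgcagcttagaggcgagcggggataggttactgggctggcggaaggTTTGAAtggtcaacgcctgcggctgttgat
PLK1 (chr16:23678779-23678888, plus strand): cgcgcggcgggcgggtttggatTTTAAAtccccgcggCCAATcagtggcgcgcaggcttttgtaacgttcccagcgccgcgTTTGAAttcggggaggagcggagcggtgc
CDCA8 (chr1:37692406-37692515, plus strand): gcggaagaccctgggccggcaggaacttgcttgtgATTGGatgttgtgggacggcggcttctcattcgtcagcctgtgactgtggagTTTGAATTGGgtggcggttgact
CCNB2 (chr15:59105036-59105145, plus strand): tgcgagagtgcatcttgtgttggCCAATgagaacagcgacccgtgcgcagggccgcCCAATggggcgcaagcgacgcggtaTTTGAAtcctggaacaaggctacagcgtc
PRC1 (chr15:90994536-90994645, minus strand): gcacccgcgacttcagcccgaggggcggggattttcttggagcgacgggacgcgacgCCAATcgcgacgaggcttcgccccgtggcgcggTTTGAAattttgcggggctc
BUB1B (chr15:40160959-40161068, plus strand): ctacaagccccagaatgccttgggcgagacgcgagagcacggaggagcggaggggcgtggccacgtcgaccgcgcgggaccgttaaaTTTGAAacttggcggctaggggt
CCNB1 (chr5:69167040-69167149, plus strand): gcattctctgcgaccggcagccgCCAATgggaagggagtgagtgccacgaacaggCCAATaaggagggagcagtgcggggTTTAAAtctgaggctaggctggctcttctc
SPC25 (chr2:168890431-168890540, minus strand): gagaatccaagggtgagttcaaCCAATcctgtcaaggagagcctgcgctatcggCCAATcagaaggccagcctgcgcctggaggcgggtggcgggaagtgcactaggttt

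In the paralogs CCNB2 and CCNB1, of which the first was higher and the second lower with GLE, CCAAT boxes in the bases shown began 87 and 54 or 55 bases before the start, and a CHR form 29 bases before it, TTTGAA, in CCNB2, and 30 bases before it, TTTAAA, in CCNB1. PLK1, CKS2 and CDC25C (1 of its 4 start sites) had TTTGAA or its complement 29 or 30 bases before the start. BUB1B and ANLN held no CCAAT box in the whole window, and BUB1B had a ratio below 1 and ANLN the highest of the set. In SPC25 the TTTGAA nearest the start began 3 bases before it and ran across it, so it is not in the bases shown. In CDCA8 the CHR and a CCAAT box on the other strand share a base.

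Over windows from 250 bases before to 50 after the start, the promoter table held 42 members (AURKA, BUB3, UBE2C, TPX2, TTK, FOXM1, RACGAP1 and WEE1 not among them) in 56 windows, and 27305 genes in all. A gene was counted if any of its windows held the motif on either strand. TTTGAA was present in 31 of 42 members (73.8%) and in 18.2% of all genes. For TTTAAA this was 12 members (28.6%) against 14.5% of all genes, for TTCGAA 4 (9.52%) against 1.82%, and for CTTGAA 3 (7.14%) against 13.4%. A CCAAT box was present in 33 members (78.6%) and in 39.7% of all genes, and a CHR form that began within the 60 bases before the start in 26 (61.9%) and in 9.11%. Ratios of members with and without the motif overlapped. The 31 with TTTGAA had a median log2 ratio of 0.40 and ratios from 0.682 to 2.23, and the 10 measured members without it a median of 0.58 and ratios from 0.776 to 1.80. A match describes letters in the window and is not a measured binding site.

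**Figure D3:**
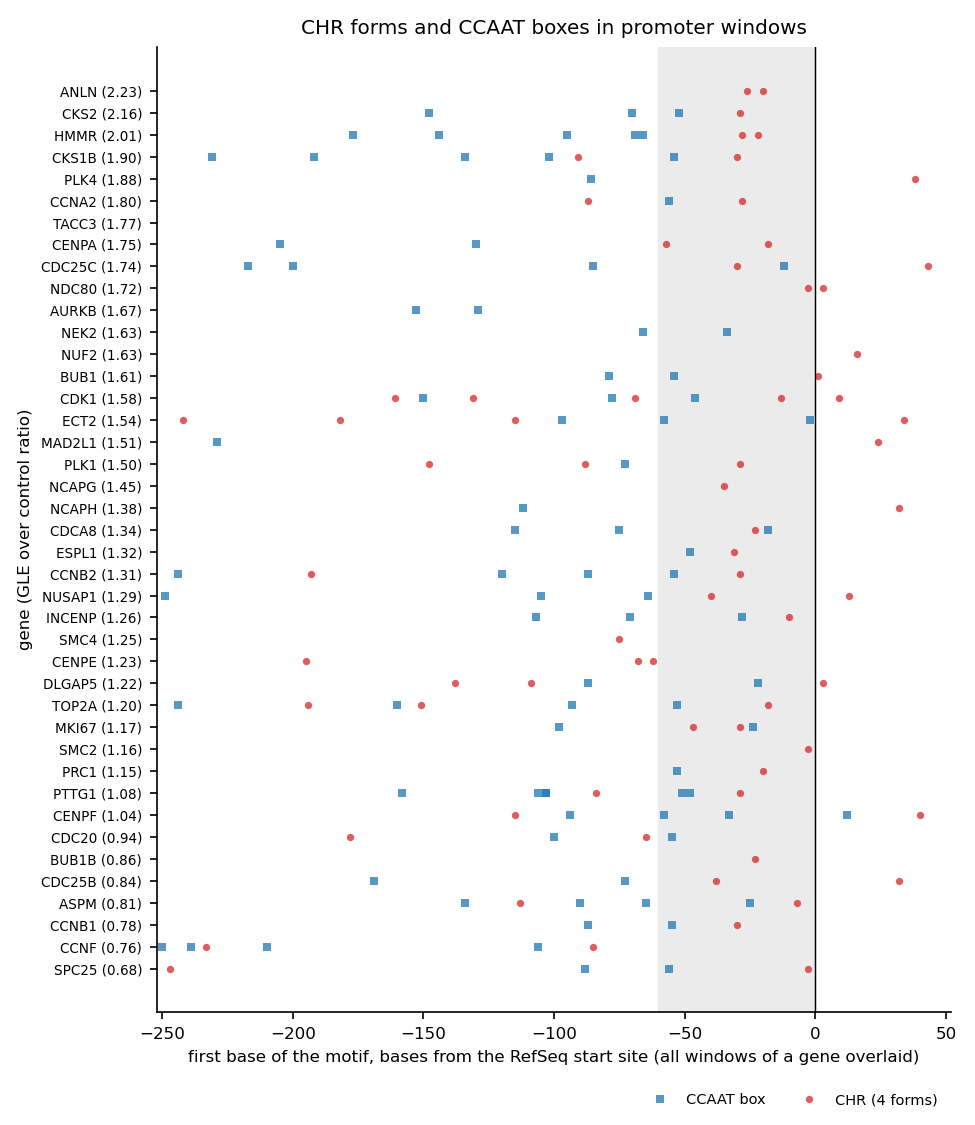
Positions of CHR forms (red circles) and CCAAT boxes (blue squares) relative to the RefSeq start site for the 41 measured members in the promoter table, ordered from the highest ratio (ANLN, 2.23) to the lowest (SPC25, 0.682); motifs on both strands and in all windows of a gene are overlaid, and shading marks the 60 bases before the start. A CHR form begins in the shaded band in 26 of the 41, from the top of the order to the bottom, and in none of the windows of the other 15. CCAAT boxes often lie further upstream.

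Spindle and centrosome genes ran from a ratio of 0.814 to 2.01, with 6 of 9 intervals above 1 (66.7%) and 2 below (22.2%). Of all measured genes 27.7% lay above and 30.1% below. HMMR, a microtubule-binding spindle protein, stood at 19.0 CPM under DMSO and 38.2 CPM under GLE, 2.01-fold higher (1.55 to 2.60). PLK4, the kinase that starts centriole duplication, stood at 10.6 and 19.8 CPM, 1.88-fold higher (1.31 to 2.69). TACC3, which stabilises spindle microtubules with clathrin and CKAP5, stood at 303 and 534 CPM, 1.77-fold higher (1.65 to 1.89). All of these sat well above the control, TACC3 with the narrowest interval. NEK2, a kinase of centrosome separation, stood at 47.6 and 77.5 CPM, a ratio of 1.63 (1.37 to 1.93). NUSAP1, a microtubule bundler, stood at 122 and 157 CPM, a ratio of 1.29 (1.15 to 1.44). DLGAP5, a spindle assembly factor, stood at 33.7 and 41.0 CPM, and its ratio of 1.22 (0.973 to 1.51) was not distinguishable from 1.

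At the other side were the kinase AURKA and ASPM. AURKA, which matures centrosomes, stood at 156 CPM under DMSO and 132 CPM under GLE, 1.18-fold lower (1.05 to 1.32). With the counts of its pseudogene AURKAP1 added, an alternative chosen after seeing the data, the ratio was 0.906 and its interval included 1 (0.811 to 1.01). Its activator TPX2 stood at 387 and 420 CPM, a ratio of 1.09 (1.02 to 1.16), whose interval included 1 under scaling by total counts and some other scalings. ASPM, a spindle pole protein whose loss is known to cause microcephaly, stood at 382 and 311 CPM, 1.23-fold lower (1.14 to 1.32). The ratios of TPX2 and AURKA thus lay on opposite sides of 1, but neither interval stayed off 1 under every alternative.

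Kinetochore and checkpoint genes had 7 of 11 intervals above 1 (63.6%) and 1 below (9.09%), against 27.7% and 30.1% of all genes. TTK (MPS1; gene at chr6:80004649-80042527 on GRCh38), the kinase that starts checkpoint signalling, stood at 23.5 CPM under DMSO and 51.8 CPM under GLE, 2.20-fold higher (1.75 to 2.77). BUB1, its downstream kinase, stood at 19.7 and 31.7 CPM, 1.61-fold higher (1.23 to 2.10). MAD2L1, the checkpoint inhibitor of CDC20, stood at 24.7 and 37.3 CPM, 1.51-fold higher (1.18 to 1.92). In each of these the GLE library was the higher, whereas the intervals of BUB1B and BUB3, partners of MAD2 in the checkpoint complex, included 1. BUB1B (BUBR1) stood at 75.5 and 64.8 CPM, a ratio of 0.858 (0.728 to 1.01), with an interval below 1 under 3 other scalings and with the GC trend removed. BUB3 stood at 227 CPM in both libraries, a ratio of 1.00 (0.915 to 1.09).

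Within the NDC80 complex, which binds microtubules at the kinetochore, subunits lay on opposite sides. NDC80 stood at 17.1 CPM under DMSO and 29.4 CPM under GLE, 1.72-fold higher (1.29 to 2.28). NUF2 stood at 42.9 and 69.9 CPM, 1.63-fold higher (1.36 to 1.95). SPC25 (gene at chr2:168861521-168890430) stood at 45.2 and 30.8 CPM, 1.47-fold lower (1.17 to 1.85) and the lowest ratio of all measured members. SPC24, the other subunit, was in the list of other kinetochore genes and is not a member. The annotated end of SPC25 overlaps NOSTRIN on the opposite strand, which had 102 control and 72 GLE counts, and the strand setting of the counting is not given, so the part of such reads in the SPC25 value was not tested.

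The members CENPA, CENPE and CENPF were higher or level, though the first and second did not keep their side under every alternative. CENPA, the centromeric histone H3 variant, stood at 4.85 and 8.48 CPM, a ratio of 1.75 whose interval nearly reached 1 (1.01 to 3.04), from 28 control and 30 GLE counts. CENPE, a kinetochore motor, stood at 78.6 and 96.4 CPM, a ratio of 1.23 (1.06 to 1.42), and with the GC trend removed 1.07 with an interval that included 1. CENPF, a large protein of the outer kinetochore, stood at 545 and 569 CPM, and its ratio of 1.04 (0.986 to 1.10) was not distinguishable from 1, though scaling to the middle of the well-counted genes (100 or more counts) gave 1.06 with an interval above 1.

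The 3 members of the set from the chromosomal passenger complex, which corrects faulty attachments and later guides cleavage, were all higher. AURKB, its kinase, stood at 198 CPM under DMSO and 331 CPM under GLE, 1.67-fold higher (1.54 to 1.81). CDCA8 (borealin) stood at 58.8 and 78.6 CPM, 1.34-fold higher (1.14 to 1.57). INCENP, the scaffold, stood at 36.9 and 46.4 CPM, 1.26-fold higher (1.02 to 1.55). The kinase had the largest ratio of the 3, and all 3 intervals lay above 1, against 27.7% of all genes. BIRC5 (survivin), the other subunit, was in the list of other kinetochore genes and is not a member.

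Anaphase genes had the lowest median log2 ratio of the 7 roles, 0.08, with 0 of 4 at least 1.5-fold higher and 3 of 4 intervals including 1. CDC20, the APC/C activator, stood at 42.6 CPM under DMSO and 40.2 CPM under GLE, a ratio of 0.943 (0.762 to 1.16). UBE2C, the APC/C ubiquitin-conjugating enzyme, stood at 157 and 161 CPM, a ratio of 1.03 (0.926 to 1.14). PTTG1 (securin) stood at 177 and 191 CPM, a ratio of 1.08 (0.980 to 1.19), and with the GC trend removed 1.12 with an interval above 1. ESPL1 (separase), the protease that securin restrains, stood at 26.1 and 34.5 CPM, a ratio of 1.32 (1.03 to 1.69), whose interval included 1 under scaling by total counts. UBE2S, which extends ubiquitin chains, gave a ratio of 1.45 with an interval from 0.488 to 4.24, too wide to place.

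Chromosome structure genes were all higher by less than 1.5-fold, with 6 of 6 intervals above 1, against 27.7% of all genes. TOP2A (gene at chr17:40388525-40417896 on GRCh38), the topoisomerase that untangles sister chromatids, stood at 1391 CPM under DMSO and 1664 CPM under GLE, 1.20-fold higher (1.16 to 1.24). It held 21.4% of the members' counts under DMSO and 20.6% under GLE. Without it, the summed CPM of the members was 5114 and 6400, a ratio of 1.25, close to the 1.24 with it. MKI67, the Ki-67 proliferation antigen that coats chromosomes, stood at 200.0 and 233 CPM, 1.17-fold higher (1.06 to 1.28).

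Condensin subunits, which compact chromosomes, graded from small to moderate differences. SMC2 stood at 119 and 137 CPM, a ratio of 1.16 (1.03 to 1.30). Its partner SMC4 stood at 202 and 252 CPM, a ratio of 1.25 (1.15 to 1.37). NCAPG and NCAPH, the condensin I subunits, stood at 93.1 and 28.2 CPM in the control. In the GLE library they stood at 135 and 39.0 CPM, ratios of 1.45 (1.28 to 1.65) and 1.38 (1.09 to 1.75).

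Cytokinesis genes were higher in 4 of 4 cases, each with an interval above 1, against 27.7% of all genes. ANLN (anillin; gene at chr7:36389862-36453791 on GRCh38), the scaffold that ties actin, myosin and septins at the cleavage furrow, stood at 78.9 CPM under DMSO and 176 CPM under GLE, 2.23-fold higher (1.97 to 2.52). ECT2, the exchange factor that activates RHOA there, stood at 99.3 and 153 CPM, 1.54-fold higher (1.36 to 1.73). RACGAP1, which with a kinesin forms centralspindlin and recruits ECT2, stood at 13.8 and 24.3 CPM, 1.76-fold higher (1.28 to 2.41). PRC1, the bundler of the central spindle, stood at 129 and 149 CPM, 1.15-fold higher (1.03 to 1.29).

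Divergence between related members was measured as the ratio of their ratios, which does not depend on how the libraries are scaled. The GC trend can still alter it, and no pair was recomputed with that trend removed. The 22 pairs of paralogs, complex partners or antagonists were chosen after the values were seen, and 13 had an exact 95% counting interval off 1. AURKB over AURKA was 1.96 (1.71 to 2.26), CDC25C over CDC25B 2.06 (1.58 to 2.71), BUB1 over BUB1B 1.87 (1.36 to 2.57) and CCNB2 over CCNB1 1.69 (1.40 to 2.05). In these 4 pairs of paralogs 1 gene was higher and the other had a ratio below 1. CDK1 differed from CCNB1 by 2.03 (1.70 to 2.43) and, less, from CCNB2 by 1.20 (1.02 to 1.42). With the GC trend removed, the ratios of CDK1 and CCNB2 were 1.42 and 1.29.

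The widest divergence lay between NDC80 and SPC25, at 2.51 (1.74 to 3.64), and that of NUF2 over SPC25 was 2.38 (1.78 to 3.21). Both rest on the SPC25 value, in which the part of reads from the overlapping gene NOSTRIN was not tested. AURKB over INCENP was 1.33 (1.06 to 1.67), TPX2 over AURKA 1.28 (1.12 to 1.46) and CENPE over CENPF 1.18 (1.01 to 1.37). With the GC trend removed, the ratios of CENPE and CENPF were 1.07 and 0.995. For the next 4 pairs no divergence was detectable at this depth. NDC80 over NUF2 was 1.05 (0.751 to 1.48), SMC4 over SMC2 1.08 (0.931 to 1.25), NCAPG over NCAPH 1.05 (0.806 to 1.37) and CKS2 over CKS1B 1.14 (0.917 to 1.41). WEE1 over CDC25C, brake over activator, was 1.08 (0.799 to 1.47), with no detectable divergence either, while WEE1 over CDC25B was 2.24 (1.68 to 2.99).

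**Figure D4:**
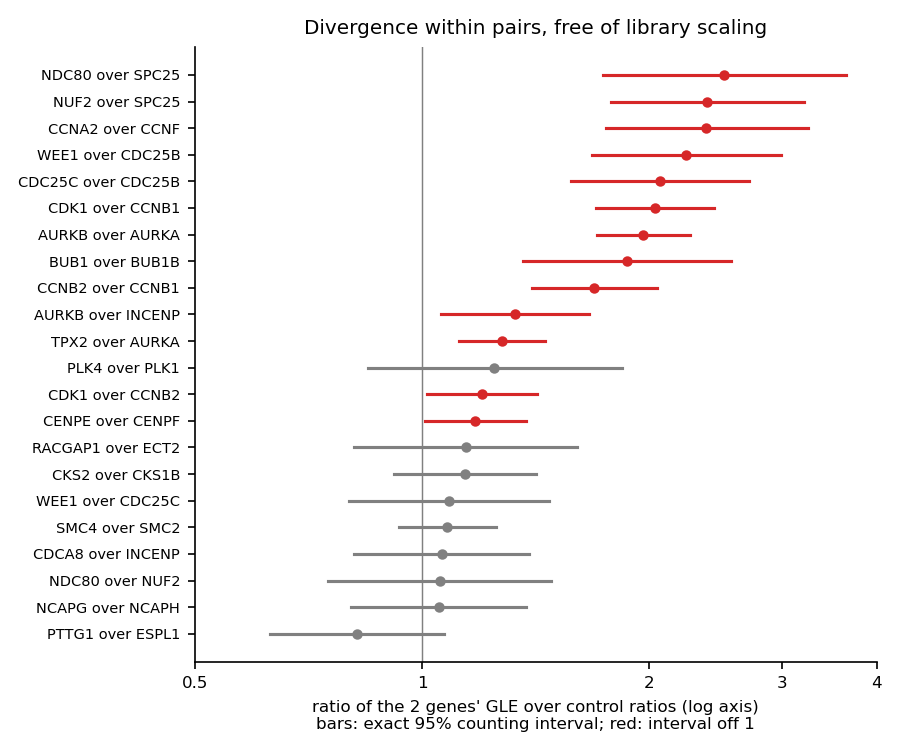
Ratio of the GLE over control ratios of the genes in each of 22 pairs (log axis) with exact 95% counting intervals; red marks the 13 pairs with an interval off 1. NDC80 over SPC25 is at the top at 2.51 and PTTG1 over ESPL1 at the bottom at 0.820 (0.628 to 1.07), in grey because its interval includes 1.

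Genes of the same pathway outside the set, in 11 lists, gave a mixed picture. Of 192 with at least 30 counts, 82 (42.7%) had an interval above 1 and 38 (19.8%) below, where all measured genes had 27.7% and 30.1%. By 1.5-fold or more 49 (25.5%) were higher and 16 (8.33%) lower, against 19.3% and 21.9% of all genes. Other regulators of mitotic entry and exit had 10 of 18 genes (55.6%) at least 1.5-fold higher and 0 lower by that fold, 12 intervals above 1 and 1 below, and a median log2 ratio of 0.60. The interval below 1 was that of PPP1CB, a catalytic subunit of the phosphatase PP1, 1.32-fold lower (1.09 to 1.60). Among the higher ones BORA, the activator of AURKA towards PLK1, was 2.70-fold (1.57 to 4.75), CDK7, the CDK-activating kinase, 2.35-fold (1.67 to 3.34) and MASTL (Greatwall), which restrains the phosphatase PP2A in mitosis, 2.17-fold (1.52 to 3.10) higher. All 4 other condensin subunits had ratios above 1, and NCAPD3 was 1.66-fold higher (1.36 to 2.02).

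Outside the set, kinetochore genes lay on both sides, with 15 of 36 intervals above 1 (41.7%) and 5 below (13.9%). All measured genes had 27.7% and 30.1%. CENPL was 5.00-fold (2.80 to 9.43) and CENPQ 2.95-fold (2.37 to 3.69) higher, while TRIP13, the ATPase that takes MAD2 out of its active form, was 2.30-fold (1.65 to 3.26) and CENPO 2.20-fold (1.67 to 2.95) lower. Spindle assembly genes had 14 of 29 intervals above 1 (48.3%) and 3 below (10.3%). STIL, a centriole assembly factor that works with PLK4, was 3.40-fold higher (2.66 to 4.37) and the augmin subunit HAUS3 2.57-fold (1.995 to 3.32), and HAUS8 was 1.64-fold lower (1.23 to 2.23). APC/C genes had 5 of 14 intervals above 1 (35.7%) and 3 below (21.4%), against the same 27.7% and 30.1% of all genes. CDC23 was 1.69-fold higher (1.37 to 2.08) and FZR1 (CDH1), the late activator, 1.84-fold lower (1.12 to 3.12).

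Cohesin genes had 6 of 13 intervals above 1 (46.2%) and 2 below (15.4%). SGO2 (shugoshin) was 1.82-fold higher (1.56 to 2.13) and PDS5B 1.30-fold lower (1.08 to 1.57). Mitotic kinesins had 4 of 13 above (30.8%, near the 27.7% of all genes) and 2 below (15.4% against 30.1%). Their median log2 ratio was -0.01, with KIF18B 1.85-fold higher (1.44 to 2.38) and KIF2A 1.36-fold lower (1.18 to 1.57). Other cytokinesis genes had 4 of 13 intervals above 1 (30.8%) and 5 below (38.5%), near the 27.7% and 30.1% of all genes. RHOA, the GTPase that ECT2 activates, was 2.22-fold lower (2.01 to 2.46) and the myosin MYH10 1.82-fold lower (1.62 to 2.05), while PDCD6IP (ALIX), an abscission factor, was 1.53-fold higher (1.22 to 1.93).

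Genes listed with the DREAM and MuvB complexes, which bind CHR promoters, had 6 of 14 intervals above 1 (42.9%) and 4 below (28.6%). E2F7 and E2F8 are in this list but are not subunits of these complexes. Of all genes 27.7% lay above and 30.1% below. LIN54, the CHR-binding subunit, was 2.71-fold (1.93 to 3.85) and LIN52 2.58-fold (2.03 to 3.30) higher, whereas MYBL2 (B-MYB), the activator that joins MuvB for G2/M genes, was 1.77-fold lower (1.42 to 2.20). Among DNA damage G2 checkpoint genes, GADD45B was 18.5-fold (14.6 to 23.8), GADD45A 3.24-fold (2.56 to 4.11) and CDKN1A (p21) 1.90-fold (1.63 to 2.23) higher, and the kinase ATM was 1.95-fold lower (1.40 to 2.76). Replication and G1/S genes had 9 of 31 intervals above 1 (29%) and 12 below (38.7%), near the shares of all genes, and a median log2 ratio of -0.16. UHRF1, which maintains DNA methylation, was 3.88-fold (1.90 to 8.91), CCNE1 (cyclin E1) 2.54-fold (1.87 to 3.53) and POLE, the leading-strand polymerase, 2.48-fold (1.86 to 3.35) lower. The licensing factor CDC6 was 2.10-fold (1.84 to 2.39), GINS2 2.15-fold (1.54 to 2.99) and RFC3 1.69-fold (1.52 to 1.88) higher. Whether any list differs from the mitotic members was not tested.

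**Figure D5:**
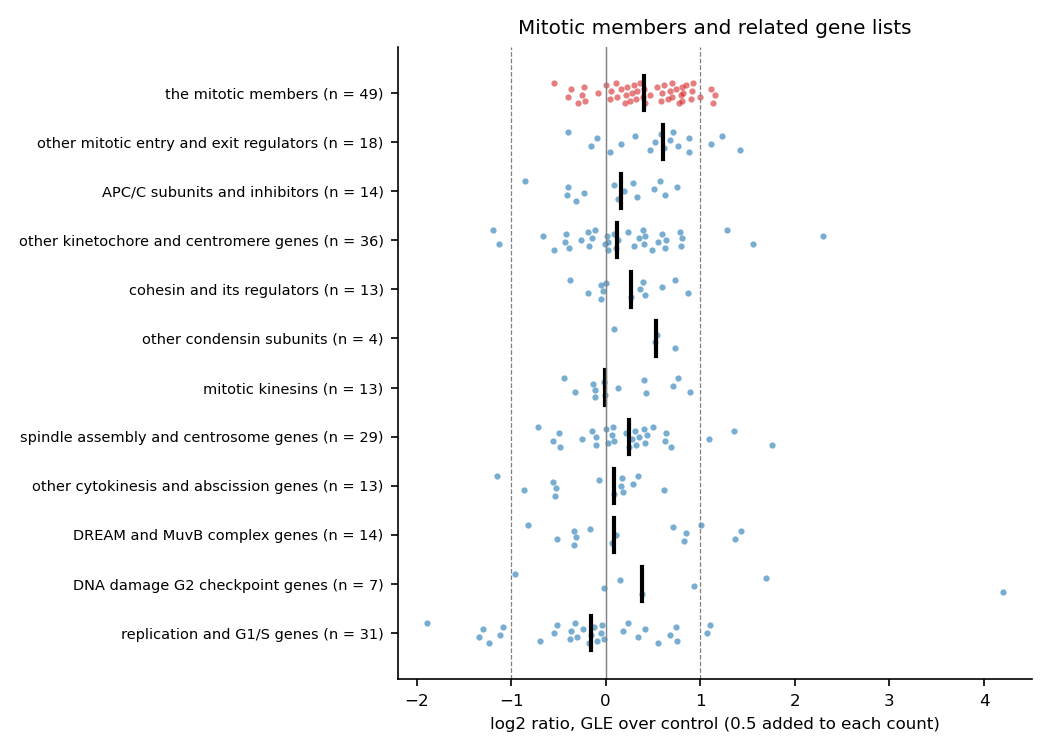
Log2 ratio of GLE over control (0.5 added to each count) for the 49 measured mitotic members (red) and 11 related lists (blue); each point is a gene with at least 30 counts, black bars are medians, dashed lines mark 2-fold. The members' median is 0.40, that of the replication list -0.16, and GADD45B lies farthest right at 18.5-fold.

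Members with fewer counts had larger ratios. The 24 with 58 to 665 counts had a median log2 ratio of 0.69 and the 25 with 786 to 13921 counts a median of 0.26, and intervals lay above 1 for 18 and 17 of them. Across the 49 members the rank correlation (Spearman) of the log2 ratio with mean CPM was -0.32 and with transcript GC content -0.21, against 0.08 and -0.18 over the 10125 measured genes with a transcript match. These describe genes of the same libraries, which are not independent. Median GC was 42.6% in the members and 47.8% in all measured genes, and with the GC trend removed the members' median log2 ratio was 0.48.

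Copies of members share sequence with them. AURKAP1, a pseudogene of AURKA, had 14 control and 38 GLE counts, beside 899 and 468 for AURKA. UBE2CP5, a pseudogene of UBE2C, had 63 and 26, beside 906 and 571 for UBE2C, whose ratio was 1.01 (0.908 to 1.12) with these added. RACGAP1P1 and PTTG3P had 0 in both libraries and PTTG2 had 0 and 1. The scaled ratio was 4.44 (2.35 to 8.86) for AURKAP1 and 0.674 (0.410 to 1.08) for UBE2CP5, and whether reads were split with the parent genes was not tested.

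In the GENCODE release 29 annotation, 11 of the 50 members have an exon of another gene under their last 500 bases, 9 of them on the opposite strand. For 3, BUB1B, NUSAP1 and PRC1, such an exon is on the same strand. CCNA2, at 235 control and 259 GLE counts, shares its end with EXOSC9, which had 204 and 199. NCAPG shares its end with LCORL, at 213 and 160, and FOXM1 with ITFG2, at 89 and 69. PLK1 shares its end with ERN2, at 0 and 3 counts, and RACGAP1 with AQP6, at 0 in both libraries. The part of reads from overlapping genes in the members' values was not tested.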

How the data were processed

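The authors deposited unnormalized read counts by gene symbol, in a separate table for each library. The submitters' processing notes name fastp, STAR, HTSeq and GRCh38, in no stated order. Versions, the annotation and whether counting used strand are not stated in these sources. Per the labels' protocols, 500 ng of total RNA entered each library.

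Counts were scaled by TMM in edgeR 4.0.16 (R 4.3.3). For each gene the GLE over control ratio was given an exact Clopper-Pearson 95% interval, from the GLE share of its counts. The sources name no molecular identifiers, so PCR copies may be among the counts, and intervals and floors cover counting error only. A gene was called measured from 30 counts summed over both libraries, and 0.5 was added to its counts for log2 ratios. All genes entered the scaling and the background shares. With 1 library per group there was no test. Pairs were compared by the conditional odds ratio (SciPy 1.17.1). The computation was tested on simulated data.

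All 50 members are named. From each related list up to 3 higher and 3 lower genes were eligible, by the interval bound nearest to 1, and ALB and AFP among markers. Other markers were named after the values were seen. Members, lists and rule were chosen with earlier results of these data known. Gene names matched RefSeq GRCh38.p14 for all 50 members. GC content came from the longest coding GENCODE release 29 transcript, with a lowess span of 0.3 (statsmodels 0.14.6) for the trend. Alternatives covered scaling (DESeq2 1.42.0 size factors among them), minimum counts, count added, thinning and GC.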

Additional observations from a re-analysis of the deposited data

How the results depend on the processing

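No paired analysis was possible because each group has 1 library. Over 11 alternatives (scaling, minimum, count added, thinning, GC) the members' median log2 ratio lay between 0.32 (scaling by total counts) and 0.48 (GC trend removed), with 17 to 21 members at least 1.5-fold higher, 3 or 4 at least 2-fold higher, 29 to 36 intervals above 1 and 5 to 7 below. The count at least 1.5-fold lower went from 0 to 1 under scaling by total counts and with the GC trend removed, and that gene was SPC25 in both, at 0.645 and 0.644. Scaling by total counts moved the median of all genes from -0.04 to -0.12. The members' median stayed 0.44 above it because a scaling shifts every log2 ratio alike, so this difference cannot test the scaling. Over TMM, 5 other scalings and the GC trend, 28 of the 35 members above 1 and 4 of the 5 below kept their side in all 7. CCNF lost it with the GC trend removed, at 0.833. CENPA, TPX2, CENPE, ESPL1, INCENP, PRC1 and SMC2 lost theirs under at least 1. HMMR was under 2-fold in some, with a lowest ratio of 1.79. Of the 9 intervals that included 1, 5 left it under some: those of BUB1B and CDC25B lay below under 4 and 3 settings, and those of FOXM1, PTTG1 and CENPF above under 1 each. AURKA lost its call with the counts of its copy added, at 0.906. BUB3, CDC20, CENPF and UBE2C crossed 1. The median of the DREAM and MuvB list was 0.09, and -0.17 over its 11 genes with at least 100 counts. Depth limits CENPA, with 58 counts, and UBE2S most.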
